A study of Homo sapiens with 3 samples.

Results

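The mir-548 family was represented by 208 guides, those whose target name begins with hsa-mir-548, out of 62916 guides in a pooled CRISPR knockout library. These guides carried 64 target names. NUGC3 is an established human gastric cancer cell line, and the screen used GeCKO, a pool of lentiviral guides, each of which directs the Cas9 nuclease to a chosen target. Guides were counted in genomic DNA of 3 libraries: cells given 10 nM RTX for 14 days, cells given the solvent DMSO for 14 days, and the DMSO culture at day 0. Each condition was 1 library of cells carrying the same guide library, so every difference between conditions below is a difference between a pair of libraries and has no replicate check. RTX is not spelled out in the labels. A treatment note in the labels gives the day 0 sample 14 days of DMSO, whereas the sample titles separate day 0 from day 14, and the titles were followed here. Guide counts hold no expression, so the cell line itself could not be checked against markers.

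MicroRNAs are short RNAs that lower the output of messenger RNAs, which they recognise mainly through bases 2 to 8 from the 5′ end, the seed. They are cut from hairpin precursors by DROSHA with its partner DGCR8, exported by XPO5, cut again by DICER1 and loaded onto an AGO protein. The mir-548 family is a large primate family whose hairpins resemble Made1, a short transposon copy made of a pair of inverted repeats, and its members are spread over many chromosomes. A guide placed in such a sequence may match more than 1 place in the genome. The guide sequences were not used here, so the number of matches of each guide was not counted.

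All 64 names matched a human gene in RefSeq, and the members lay on 20 chromosomes, with 7 each on chromosomes 6 and X. By the RefSeq annotation 39 members lay within a protein-coding gene, 3 within a long noncoding RNA gene only and 22 within neither. Exons and introns of these host genes were not separated. Mature sequences were on file for 47 members and comprised 49 distinct sequences with 28 distinct seeds. The family was rich in A and U: the median mature sequence was 65% A plus U, against 47.6% for 2071 mature sequences of the other microRNAs of the library. Cas9 needs a GG pair beside its target on either strand. A GG or CC pair stood in 63.3% of the mature sequences of the family and in 94.7% of the others.

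The mature sequences below are a selection. Some belong to members with extreme guides, and 1 stands for each seed found in at least 3 members. That of 548k was added because its 4 guides were all above day 0 with DMSO and all below DMSO with RTX. Where each guide matches its target was not known here, so the printed letters need not be those that a guide matches. They are RefSeq sequences of build GRCh38.p14, written 5′ to 3′, with the seed in capitals.
hsa-miR-548ab: aAAAGUAAuuguggauuuugcu
hsa-miR-548ak: aAAAGUAAcugcgguuuuuga
hsa-miR-548w: aAAAGUAAcugcgguuuuugccu
hsa-miR-548y: aAAAGUAAucacuguuuuugcc
hsa-miR-548aj-3p: uAAAAACUgcaauuacuuuua
hsa-miR-548am-3p: cAAAAACUgcaguuacuuuugu
hsa-miR-548aj-5p: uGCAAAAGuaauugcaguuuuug
hsa-miR-548f-3p: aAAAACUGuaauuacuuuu
hsa-miR-548ag: aAAGGUAAuugugguuucugc
hsa-miR-548ac: cAAAAACCggcaauuacuuuug
hsa-miR-548o-3p: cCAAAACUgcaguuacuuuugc
hsa-miR-548p: uAGCAAAAacugcaguuacuuu
hsa-miR-548k: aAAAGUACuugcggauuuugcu
The first 4 share a seed and differ further downstream. The mature RNA of 548ab lay on the minus strand of chr3:103524085-103524106, outside any annotated protein-coding or long noncoding gene. That of 548ak lay on the minus strand of chr10:12130792-12130812, within SEC61A2, a gene for a protein of the endoplasmic reticulum translocon. That of 548w lay on the plus strand of chr16:26025246-26025268, within HS3ST4, which encodes a heparan sulfate sulfotransferase. That of 548y lay on the minus strand of chr14:47761061-47761082, outside both kinds of gene.

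The hairpin can show the inverted repeat that the family is known for, and hairpins were on file for 5 of the 64 members. That of 548at, within ATP6V0A1 (a subunit of the proton pump of vesicles) on the plus strand of chr17:42494773-42494830, is printed with its mature arms in capitals.
hsa-mir-548at: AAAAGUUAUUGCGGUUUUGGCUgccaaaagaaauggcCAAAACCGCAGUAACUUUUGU
The reverse complement of its right arm matched its left arm at 18 of 19 aligned bases, with no gap. This was the closest match: the arms of 548ar matched at 16 of 19 bases and those of 548as at 16 of 20. The arms of 548aw and 548m were not compared.

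Several members share a product. The 5 genes 548f-1 to 548f-5 give the same 548f-3p sequence, and the pairs 548ae-1 and 548ae-2, 548ag-1 and 548ag-2, 548aj-1 and 548aj-2, and 548o and 548o-2 each share a mature sequence. Sharing also crossed names, since 548aj-2 and 548g have the same 548aj-5p sequence. No pair of member guides had the same reads in all 3 libraries. The guides were unevenly spread over names: 32 members had 4 guides, 20 had 3, 8 had 2 and 4 had 1.

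The libraries held 17344507 reads with RTX, 18805737 with DMSO at day 14 and 16547572 at day 0. The family took 41282 reads with RTX, which is 0.238% of the library (exact 95% interval 0.236% to 0.240%). It took 45218 reads in the DMSO library, 0.240% (0.238% to 0.243%), and 40829 at day 0, 0.247% (0.244% to 0.249%). Member guides made up 0.331% of the guides, so they were read less often than the average guide at every time. The median member guide had 165 reads with RTX, 161 with DMSO and 156 at day 0, against 232, 251 and 230 for all guides and 199, 218 and 200 for the 6230 guides against other microRNAs. The middle part of the family's day 0 reads, between its quartiles, ran between 84 and 275 reads. Amplified reads are not independent molecules, so these intervals, and those given for single guides, cover counting error only.

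For each guide the log2 ratio of normalized reads was taken with a pseudocount of 5, which makes changes of thinly read guides look smaller than they were. Guides entered if their normalized day 0 reads reached 10. Of the 208 member guides, 204 passed that limit, and 4 did not: 1 each of 548aj-1, 548al, 548f-4 and 548v, with 5, 2, 3 and 9 reads at day 0. In what follows a guide is called lower or higher when its log2 ratio is at most -1 or at least 1, a 2-fold change, and a gene when the median of at least 2 guides does the same. Gene values could be had for 60 members.

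DMSO at day 14 over day 0 asks which guides were lost or gained during growth without RTX. The median log2 ratio was -0.10 over the 204 member guides, against 0.00 over all guides. The quartiles were -0.63 and 0.26 for the family, against -0.37 and 0.32 for all guides. The difference was thus small at the median and larger towards the low tail. There 31 member guides in 24 genes were lower, 15.2%, where 7.52% of all guides were. The share was 8.31% among other microRNA guides and 2.02% among the non-targeting guides, which have no target in the genome. At least 4-fold lower were 8 member guides, 3.92%, against 1.62% of all guides, and 0 were 4-fold higher, against 0.0687%. Only 4 member guides were higher, 1.96%, against 2.32% of all.

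Low reads at day 0 moved with this tail. Among member guides with up to 50 day 0 reads 7 of 16 were lower (43.8%), against 20% of all guides so read. With over 50 up to 100 reads it was 26.2% of 42 member guides against 14.3%, and with over 100 up to 200 reads 13.0% of 69 against 8.87%. With over 200 up to 400 reads it was 7.02% of 57 against 5.18%, and above 400 reads 0 of 20 member guides, against 3.29% of all guides. The family stood above the library in the 4 lower classes of reads and below it in the highest. When all guides were weighted to the family's day 0 reads, 9.28% of them were lower, and 9.71% of the other microRNA guides. Leaving out the thin class of up to 50 reads, 12.8% of the remaining 188 member guides were lower, against 6.86% of all guides. These read classes were chosen after the values were seen, and how much the low reads contribute to the family's share was not tested.

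The lowest guides had few or no reads in the DMSO library. Guide HGLibA_26948, the sole guide against 548ak, had 21 reads with RTX, 1 with DMSO and 51 at day 0. Its log2 ratio of DMSO over day 0 was -3.31, and the exact 95% interval of the plain read ratio ran between -11.16 and -3.29. The DMSO library was the lowest of the 3 and RTX lay between it and day 0. Guide HGLibA_26911 against 548ab had 10 reads with RTX, 0 with DMSO and 41 at day 0, at least 15.3-fold lower with DMSO than at day 0 when its absence is set to a floor of 3 reads. Guide HGLibA_27141 against 548y had no read in either day 14 library and 25 reads at day 0. It was therefore at least 9.31-fold lower with DMSO and at least 8.38-fold lower with RTX than at day 0.

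Guide HGLibA_27132 against 548w had 10 reads with RTX, 9 with DMSO and 88 at day 0. Both day 14 libraries were low: the log2 ratio was -2.86 for DMSO over day 0 (-4.62 to -2.46) and -2.64 for RTX over day 0 (-4.25 to -2.20). These 4 guides all target members with the AAAGUAA seed printed above. The next guide, HGLibA_27105 against 548o-2, had 82 reads with RTX, 21 with DMSO and 126 at day 0, and was low in the DMSO library only (-2.47, -3.49 to -2.07). For guides with few reads the log2 ratio with its pseudocount lies near or outside the plain interval, since the pseudocount draws it towards 0.

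Both copies of 548aj had a guide with this pattern. Guide HGLibA_26942 against 548aj-1 on chromosome 6 had 113 reads with RTX, 24 with DMSO and 138 at day 0. Guide HGLibA_26945 against 548aj-2 on chromosome X had 141 reads with RTX, 29 with DMSO and 128 at day 0. Both were lower with DMSO than at day 0, by log2 ratios of -2.45 (-3.37 to -2.05) and -2.11 (-2.94 to -1.71), and neither was lower with RTX. The other guides of these genes that passed stayed within 2-fold for DMSO over day 0. The log2 ratio was 0.62 for 548aj-1, and 0.42, 0.40 and -0.48 for 548aj-2. The last, HGLibA_26946, had 115 reads with RTX, 66 with DMSO and 84 at day 0, and so leaned the same way as HGLibA_26945.

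The 4 guides that were higher with DMSO than at day 0 came from 4 genes. Guide HGLibA_26950 against 548al had 25 reads with RTX, 37 with DMSO and 10 at day 0, at 1.36 (0.69 to 2.90). Guide HGLibA_27040 against 548f-5, within DMD (the dystrophin gene), had 152 reads with RTX, 346 with DMSO and 122 at day 0, at 1.31 (1.04 to 1.65). The DMSO library was the highest of the 3 for both. The others were HGLibA_26970 against 548aq at 1.28 and HGLibA_27109 against 548p at 1.15, and the guide of 548i-1 followed at 0.91, within 2-fold.

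At the level of genes, 5 of 60 members were lower with DMSO than at day 0, 8.33%, against 3.42% of all genes. The share was 2.76% of the 1594 other microRNA genes. They were 548i-3 (-1.47), 548am (-1.42), 548ab (-1.32), 548ac (-1.10) and 548h-5 (-1.09). No member was higher, where 0.109% of all genes were. The background of all genes consists mostly of genes with 3 guides, so the number of guides differs between the lists.

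The agreement between guides of a low gene varied. Both guides of 548i-3 were low, with 57 reads with RTX, 28 with DMSO and 81 at day 0 for HGLibA_27074, and 69, 8 and 27 reads in the same order for HGLibA_27075. The 3 guides of 548am spread between -1.84 and -0.39, and the lower pair rested on 25 and 27 reads at day 0. The guides of 548ab spread between -3.28 and 0.43, 3 of them being lower and HGLibA_26912 keeping 294 reads with RTX, 391 with DMSO and 259 at day 0. Among 548ac guides, HGLibA_26915 had 55 reads with RTX, 11 with DMSO and 60 at day 0, and HGLibA_26913 had 27 with RTX, 39 with DMSO and 132 at day 0. The other 2 guides of 548ac lay at -0.05 and -0.41. In 548h-5 the guides spread between -1.49 and 0.57, so they differed in sign.

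At least 2 lower guides were found in 6 of the 60 members, 10%, against 5.14% of the other microRNA genes and 3.48% of all genes. Guides of 1 sign throughout were found in 14 members (23.3%), 11 of them negative, against 16.4% of the other microRNA genes and 28.6% of all genes, which mostly have 3 guides. The next lowest members with guides of 1 sign, within 2-fold, were 548w (-0.67) and 548at (-0.65). The lowest 548at guide, HGLibA_26977, was well read, with 139 reads with RTX, 94 with DMSO and 327 at day 0 (-1.90, -2.30 to -1.62). The highest members with guides of 1 sign stayed within 2-fold, and these were 548k (0.52), 548a-3 (0.27) and 548ar (0.13). All 4 guides of 548k were higher in the DMSO library, between 0.16 and 0.70.

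RTX over DMSO, both at day 14, asks which guides differed between the drug and its solvent. The median log2 ratio of the member guides was 0.00, as over all guides, but their spread was wider, with an SD of 0.86 over guides against 0.73. Higher with RTX were 29 member guides in 26 genes, 14.2%, against 7.89% of all guides, 8.13% of other microRNA guides and 4.24% of non-targeting guides. Lower were 13 guides, 6.37%, against 5.43% of all guides and 7.38% of all guides weighted to the family's day 0 reads. Past 4-fold, 5 member guides were higher (2.45% against 1.31% of all) and 1 was lower (0.490% against 0.607%). With the same weighting by day 0 reads 9.94% of all guides were higher. Among member guides with over 50 day 0 reads 12.8% were higher, against 7.18% of all such guides.

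This comparison shares the DMSO day 14 library with the previous one, so a guide that was low there is counted in both. The 29 higher guides had median reads of 122 with RTX, 32 with DMSO and 86 at day 0, and their median log2 ratio was 0.23 for RTX over day 0. The 31 guides lower with DMSO had median reads of 58 with RTX, 28 with DMSO and 83 at day 0. The typical higher guide was near its day 0 level with RTX and low with DMSO. The call itself favours guides with low DMSO reads, so that part of the pattern is not a separate result.

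The highest guide was HGLibA_27075 against 548i-3, whose reads are given above, at 2.62 (2.19 to 4.52). It was followed by the 548aj-2 guide HGLibA_26945 at 2.23 (1.84 to 3.05), the 548ak guide at 2.19, the 548aj-1 guide HGLibA_26942 at 2.15 (1.73 to 3.08) and the 548ac guide HGLibA_26915 at 2.02 (1.51 to 3.55). The counts behind each are those given for growth with DMSO, where each of the 5 was lower. The 548ab guide with 0 reads in the DMSO library was at least 3.67-fold higher with RTX.

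Other guides were higher with RTX without being 2-fold lower in the DMSO library than at day 0. Guide HGLibA_27029 against 548f-2, within ERBB4 (a receptor tyrosine kinase), had 524 reads with RTX, 271 with DMSO and 135 at day 0, at 1.08 (0.88 to 1.31). Guide HGLibA_27133 against 548w had 253 reads with RTX, 86 with DMSO and 90 at day 0, at 1.64 for RTX over DMSO (1.34 to 2.07). Guide HGLibA_27035 against 548f-3 had 143 reads with RTX, 57 with DMSO and 51 at day 0, at 1.39 (1.01 to 1.94). For the last pair RTX alone was high. The 548w guide stood opposite to HGLibA_27132 of the same gene, which was low in both day 14 libraries.

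The lowest guide was HGLibA_27109 against 548p, within ST8SIA4 (a polysialyltransferase), with 7 reads with RTX, 130 with DMSO and 50 at day 0. Its log2 ratio of RTX over DMSO was -3.39 (-5.42 to -2.99). It was higher with DMSO (1.15) and lower with RTX (-2.20) than at day 0. The other 548p guide lay at 0.64 for RTX over DMSO, so the gene's median of -1.37 rests on this guide. Guide HGLibA_26983 against 548au, within PHF2 (a histone demethylase gene), had 29 reads with RTX, 128 with DMSO and 75 at day 0, at -1.84 (-2.64 to -1.41). The next lowest guides lay between -1.42 and -1.31, 1 each of 548ar, 548ae-1 and 548ah.

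Among genes, 2 of 60 members were higher with RTX, 3.33% against 2.75% of all genes, namely 548i-3 (1.83) and 548ai (1.42). In 548ai 3 guides lay between 1.29 and 1.58 and the other at -0.63. Its guide HGLibA_26939 had 242 reads with RTX, 86 with DMSO and 128 at day 0. Lower was 548p alone, 1.67% against 0.844% of all genes. Guides of 1 sign were found in 8 members (13.3%), against 15.6% of the other microRNA genes and 27.2% of all genes. Besides 548i-3 the positive ones were 548am (0.72), 548az (0.71) and 548h-4 (0.44), and the negative ones were 548f-4 (-0.76), 548k (-0.73), 548ae-1 (-0.60) and 548ag-2 (-0.52). For 548k the 4 guides lay between -0.83 and -0.10, with 351 reads with RTX, 656 with DMSO and 360 at day 0 for HGLibA_27085. The RTX and day 0 reads of that guide were close, and the DMSO reads stood above both.

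RTX at day 14 over day 0 asks what changed over the whole course with the drug, and it shares a library with each of the comparisons above. The median of the member guides was -0.03, against 0.00 over all guides. Lower were 24 member guides in 22 genes, 11.8%, against 5.32% of all guides, 6.01% of other microRNA guides and 2.72% of non-targeting guides. All guides weighted to the family's day 0 reads gave 7.06%. With over 50 day 0 reads 11.2% of 188 member guides were lower, against 4.70% of all such guides. Higher were 6 member guides, 2.94%, against 3.18% of all. Past 4-fold, 4 member guides were lower (1.96% against 0.762%) and 0 were higher, against 0.19% of all.

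After 548w and 548y guides, already given, the lowest guides were those of 548p (-2.20), 548ac (HGLibA_26913, -2.11, -2.95 to -1.69) and 548f-4 (HGLibA_27037, -1.82, -3.31 to -1.26). The 548f-4 guide had 11 reads with RTX, 35 with DMSO and 51 at day 0. The highest were HGLibA_27029 of 548f-2 at 1.91 (1.67 to 2.23), HGLibA_27133 of 548w at 1.43, HGLibA_27035 of 548f-3 at 1.40, HGLibA_26899 of 548a-3 at 1.32 and HGLibA_27075 of 548i-3 at 1.20. The 548a-3 guide had 354 reads with RTX, 285 with DMSO and 138 at day 0, and was above day 0 at day 14 with and without the drug.

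Lower genes over the whole course were 3 of 60, 5% against 1.39% of all genes: 548ab (-1.18), 548w (-1.02) and 548p (-1.01). No member was higher, against 0.62% of all genes. In 548w the 3 guides spread between -2.64 and 1.43, the widest disagreement among these 3 genes. Members with all guides of 1 sign numbered 11 (18.3%), against 19% of the other microRNA genes and 28.1% of all genes, and their medians lay between -0.69 (548ah) and 0.84 (548al). The next highest were 548aq (0.55), 548az (0.43), 548h-4 (0.43) and 548aj-2 (0.28), and the next lowest 548ag-2 (-0.62), 548ae-1 (-0.53), 548s (-0.40) and 548b (-0.12), all within 2-fold.

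Grouped by seed, the low guides were unevenly spread, as a description with no test. Of all guides 7.52% were lower with DMSO than at day 0 and 5.32% with RTX than at day 0, so few low guides would fall in a small group. Seeds were read only from the mature sequences on file, which covered 47 of 64 members. For some of these only 1 arm was on file, so a seed may belong to more members than counted. Seed AAAGUAA was on file for 10 members with 31 guides that passed. Of these guides 10 (32.3%) were lower with DMSO than at day 0 and 9 (29.0%) were lower with RTX than at day 0. The 10 low guides came from 8 of the 10 members, 3 of them from 548ab. Seed AAAAACU, in 9 members with 26 guides, had 5 lower guides with DMSO (19.2%) and 2 with RTX (7.69%). Seed AAAACUG, that of the 548f genes and of 548ar, had 0 of 18 lower with DMSO and 2 with RTX (11.1%). Seed AAGGUAA had 1 of 11 lower in each of these comparisons, and seed GCAAAAG had 2 of 9 with DMSO and 1 of 9 with RTX. For RTX over DMSO, 4 AAAACUG guides were lower (22.2%) and 2 higher (11.1%), where 5.43% and 7.89% of all guides were. In that comparison 2 AAAGUAA guides were lower (6.45%) and 7 higher (22.6%), and 3 AAAAACU guides were lower (11.5%) and 6 higher (23.1%). Of AAGGUAA guides 1 was lower and 3 higher, and of GCAAAAG guides 0 were lower and 1 higher. Members with a 5p and a 3p sequence can belong to more than 1 seed.

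The AAAGUAA guides had a median of 164 reads at day 0. The median was 132 for AAAAACU, 128.5 for AAAACUG, 185 for AAGGUAA and 128 for GCAAAAG. Among AAAGUAA guides with over 50 reads at day 0, 8 of 28 (28.6%) were lower with DMSO. Without the 10 members with AAAGUAA on file, 21 of 173 guides were lower with DMSO (12.1%) and 15 with RTX (8.67%). Of all guides 7.52% and 5.32% were. The 173 guides include those of members with no mature sequence on file, so some of them may carry the same seed.

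Most host genes had guides of their own in the library, designed against the host and not the microRNA. Hosts were matched to guides by RefSeq symbol only, and older symbols were not searched. MRE11, RADX and LOC112267908, the hosts of 548l, 548an and 548i-1, had no guide that passed under these symbols and are not covered. Of the member guides within a protein-coding gene 12.8% of 125 were lower with DMSO than at day 0, and of those outside 19% of 79. Of all guides 7.52% were. With RTX over day 0 the shares were close, 12% within and 11.4% outside, against 5.32% of all guides. Whether the place of a member matters was not tested. Some members with at least 1 lower guide lay in hosts that stayed within 2-fold: the median log2 ratio of DMSO over day 0 was -0.37 for CD58, the host of 548ac, 0.45 for CTPS2, the host of 548am, 0.40 for HS3ST4, the host of 548w, and 0.33 for SEC61A2, the host of 548ak. CD58 encodes a cell adhesion ligand and CTPS2 a CTP synthase. Among the hosts with matched guides only CDC16 was past 2-fold for DMSO over day 0, where 3.42% of all genes were lower and 0.109% higher. CDC16 is a subunit of the anaphase-promoting complex and the host of 548ar. Its guides had a median of -2.31 and ran between -2.79 and -1.09, while the 2 guides of 548ar lay at 0.01 and 0.25. For RTX over DMSO LPIN1, a phosphatidate phosphatase gene and the host of 548s, was at 1.23 and 548s at -0.74. LPIN1 was the only host with matched guides past 2-fold there, where 2.75% of all genes were higher and 0.844% lower. The part of the hosts in the members' values was not tested.

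The genes that make and use microRNAs were 14 in the list, each with 3 guides. With DMSO over day 0 DROSHA (-1.32) and XPO5 (-1.07) were lower, 2 of 14, where 3.42% of all genes were, and none was higher. The median of the list was -0.24, against 0.00 over all genes. DGCR8 (0.04), DICER1 (-0.67), RAN (-0.75), which supplies the energy for export by XPO5, and PRKRA (-0.77), a partner of DICER1, were within 2-fold. The DGCR8 and DICER1 guides disagreed, with 1 guide each at -2.17 and -1.01. None of the 14 passed 2-fold with RTX over DMSO, where 2.75% of all genes were higher and 0.844% lower. Nor did any with RTX over day 0, where 0.62% of all genes were higher and 1.39% lower. At such shares few of 14 genes would pass, so the lack of calls is not read as a result. The medians of the list were 0.16 and -0.23, against -0.002 and -0.005 over all genes.

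Other microRNA names with several copies were set beside the family by a choice made after the values were seen: the 14 names sharing a number and holding at least 15 guides that passed. With DMSO over day 0 the mir-1273 guides were lower in 62.5% of 24 and the mir-320 guides in 29.0% of 31, both above the 15.2% of mir-548. The other 11 names held between 0% and 8.70%, mir-1302 being highest of them with 2 of 23. The median day 0 reads were 85.5 for mir-1273, 136 for mir-320, 159 for mir-548 and 113 for mir-1302. In the chromosome 19 microRNA cluster, a primate cluster of many related copies, 4% of 100 guides were lower, with median reads of 256 at day 0 over all its guides. With RTX over DMSO the higher share was 14.2% for mir-548, 20.8% for mir-1273, 19.4% for mir-320, 17.4% for mir-1302, 15% for mir-3689 and 2% for the cluster. With RTX over day 0 the lower share was 37.5% for mir-1273, 12.5% for mir-30 and 11.8% for mir-548.

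The calls at 2-fold were set beside 2 other rules. In the authors' deposited table for the day 14 pair, 39 of the 208 member guides were higher with RTX than with DMSO at a false discovery rate under 0.05, 18.8% against 13.9% of all guides, and 11 were lower, 5.29% against 4.29%. For DMSO over day 0 the authors' deposited table had 15 member guides lower, 7.21% against 5.84%, and 17 higher, 8.17% against 9.77%. For RTX over day 0 the authors' deposited table had 16 lower, 7.69% against 4.04%, and 24 higher, 11.5% against 11%. An exact test in edgeR on the recovered reads, with the spread taken from non-targeting guides, compares 2 libraries rather than conditions. It called 10 of 204 member guides lower with DMSO than at day 0, where 2.07% of all guides were called, and 4 lower with RTX than at day 0, where 0.664% were. It called 0 member guides higher in either of these, where 0.129% and 0.195% of all guides were called. For RTX over DMSO it called 2 member guides higher and 1 lower, with 0.926% and 0.391% of all guides called. The plain intervals of all 31 guides lower with DMSO than at day 0 lay below 0, and 22 of them lay wholly below -1. Of the 29 guides higher with RTX than with DMSO all had intervals above 0, 20 of them wholly above 1. Of the 24 guides lower with RTX than at day 0 all had intervals below 0, 12 of them wholly below -1. These guides were picked for a 2-fold change in the same reads. Intervals clear of 0 therefore follow largely from the choice and are not separate support for the calls. The intervals were not counted over all guides.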

How the data were processed

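Guides were counted in genomic DNA of 3 libraries of NUGC3 cells, amplified in 2 PCR steps, per the labels' protocols. The authors deposited 3 guide-level tables, each comparing a pair of libraries. The submitters' processing notes list MAGeCK 0.5.7 and build hg19; the step that assigned reads to guides was not given in the sources used here. Each guide has a control count and a treatment count, per the file headers, but the deposited values behave as a signal, namely reads scaled by 1 factor for each library of the pair. The deposited tables also hold the authors' p-values and false discovery rates. Which library is control and which treatment was taken from each table's name and the sample titles.

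Whole reads were recovered from the step that 1 read makes in a column, and 100% of the values under 9000 were whole within 0.1. The library totals were the same in every table. Log2 ratios used the deposited normalized values and a pseudocount of 5, on the 62610 guides that reached 10 normalized day 0 reads, and gene values were medians over at least 2 guides. The edgeR 4.0.16 exact test used 1 dispersion, from the non-targeting guides, with Benjamini-Hochberg adjustment at 0.05, and was tested on simulated data. It was an alternative, since each condition has 1 library.

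Depth sets the precision: 3 reads were taken as the floor of a guide at 0, and intervals are exact 95% binomial intervals of read ratios. Named members are, in each comparison, the 5 highest and the 5 lowest genes with guides of 1 sign, the 5 highest and the 5 lowest guides, and the pathway genes; genes past 2-fold are named too. The members and lists were chosen with earlier results of these data known, and guides and host genes named beyond that rule were chosen after their values were seen. Sequences and host genes are from RefSeq, build GRCh38.p14. Members on chromosome 8 have no sequence printed.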

Additional observations from a re-analysis of the deposited data

How the results depend on the processing

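No paired analysis was possible because each condition was 1 library, and no replicate could be left out. Leaving out chromosome 21 gives the same values, since 0 members lie on it. Setting the non-targeting guides to 0 shifted the median of all guides by 0.10, -0.19 and -0.11 for RTX over DMSO, DMSO over day 0 and RTX over day 0, and moved the family's median for DMSO over day 0 to -0.29. For RTX over DMSO the 2 higher genes became 4 with that scaling, and 1 with at least 50 day 0 reads, with the mean of guides or with at least 3 guides; the lower gene became 0 with a pseudocount of 20 or with at least 3 guides. The edgeR exact test called 2 guides higher and 1 lower, against 29 and 13 at 2-fold. For DMSO over day 0 the 31 lower guides became 10 by the edgeR exact test and 15 in the authors' deposited table. The 4 higher guides became 1 with a pseudocount of 20, 2 with at least 50 day 0 reads, 0 by the edgeR exact test and 17 in the authors' deposited table. The 5 lower genes became 2 with a pseudocount of 20 and 3 with at least 50 day 0 reads. For RTX over day 0 the 24 lower guides became 4 by the edgeR exact test, and the 6 higher guides became 0 by it and 24 in the authors' deposited table. The 3 lower genes became 0 with a pseudocount of 20 and 1 with the mean of guides. The other 92 values under an alternative stayed within 1.5 times the count, or within the spread for medians. The cause of these shifts was not tested. Depth limits single guides: 16 of the 204 member guides had at most 50 day 0 reads, and a median of such guides can rest on 25 and 27 reads, as in 548am.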
